A study of Mus musculus with 2 samples.

Results

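The 10 genes described here encode proteins of the contractile apparatus of smooth muscle and were read in cultured brain pericytes (PCs) of early and late passage. The members were taken by symbol as *Acta2*, *Actg2*, *Tagln*, *Cnn1*, *Myh11*, *Myl9*, *Cald1*, *Tpm1*, *Tpm2* and *Des*, and all 10 were among the 31053 genes listed in both libraries. Single cell RNA-seq was performed on PCs at passage 5 (PC5, 1 library) and at passage 20 (PC20, 1 library), grown from brains of female wild type C57BL/6N mice aged 6 to 8 weeks, with 6 mice pooled for an isolation and no agent or genetic change named for either culture. The paper's methods state that each passage came from its own isolation, whereas the deposited design text tells of one isolation, so passage and isolation cannot be told apart. By the same methods, both cultures grew on collagen, first in endothelial cell growth medium and then in pericyte medium, and were not sorted before sequencing.

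Smooth muscle cells contract when myosin pulls on actin filaments. The motor is a smooth muscle myosin heavy chain (*Myh11*) with a regulatory light chain (*Myl9*), which works on filaments that contain smooth muscle alpha actin (*Acta2*) or gamma actin (*Actg2*). Tropomyosins (*Tpm1*, *Tpm2*) lie along the filament, calponin (*Cnn1*) and caldesmon (*Cald1*) bind it and restrain the motor, transgelin (*Tagln*, also called SM22 alpha) cross-links it, and desmin (*Des*) forms the intermediate filaments of muscle. Many of these genes are read out by serum response factor (SRF), which binds CArG boxes in DNA. In the brain, pericytes of the capillaries usually carry less of this apparatus than smooth muscle cells of arterioles. *Cald1*, *Tpm1* and *Tpm2* are also used by cells that are not muscle.

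The promoters of *Acta2* and *Myl9* are shown because these genes were the pair whose transcripts went together most in PC20 and were also linked in PC5. The RefSeq table of promoters (GRCm38.p6, 250 bases before to 50 bases after an annotated start) held 8 windows for 7 of the 10 members, which were *Acta2*, *Myl9*, *Cald1*, *Cnn1*, *Des*, *Tpm1* and *Tpm2*. The *Acta2* window is chr19:34255324-34255623 on the minus strand, and the *Myl9* window is chr2:156775214-156775513 on the plus strand. Both are written 5′ to 3′, with capitals for matches to a CArG-like motif, meaning CC, then 6 bases of which at least 5 are A or T, then GG.
Acta2: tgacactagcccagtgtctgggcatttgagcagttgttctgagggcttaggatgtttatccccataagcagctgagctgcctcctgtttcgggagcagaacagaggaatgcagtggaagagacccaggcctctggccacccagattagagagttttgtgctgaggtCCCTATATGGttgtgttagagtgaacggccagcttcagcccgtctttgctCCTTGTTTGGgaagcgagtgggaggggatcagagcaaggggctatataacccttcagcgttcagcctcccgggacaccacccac
Myl9: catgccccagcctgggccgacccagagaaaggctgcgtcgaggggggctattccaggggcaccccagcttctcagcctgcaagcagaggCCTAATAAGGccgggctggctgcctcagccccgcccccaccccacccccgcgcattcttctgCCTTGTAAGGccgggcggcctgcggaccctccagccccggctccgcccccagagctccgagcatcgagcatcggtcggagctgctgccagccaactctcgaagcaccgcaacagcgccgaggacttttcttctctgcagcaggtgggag
The *Acta2* matches, CCCTATATGG and CCTTGTTTGG, open 84 and 34 bases before the RefSeq start, and the *Myl9* matches, CCTAATAAGG and CCTTGTAAGG, open 161 and 99 bases before it. For both genes the 5′ end of the GENCODE gene, given below, lies in the window but further 5′ than this start. These distances therefore depend on the annotation and are not distances from a measured start of transcription. On both strands, a CArG-like match was found in 9.98% of all 32851 RefSeq windows, or 11.3% of their 27025 genes, and in the windows of 2 of the 7 members, *Acta2* and *Myl9*. The strict CArG box, in which all 6 middle bases are A or T and which is therefore also a CArG-like match, was in 1.63% of all windows (1.81% of genes) and, among members, in that of *Myl9* (CCTAATAAGG). The MCAT motif CATTCC, which overlaps none of these matches, was found on the opposite strand, as GGAATG, in the *Acta2* window, in 1 of the *Cald1* windows and in the *Tpm1* window, against 14.7% of all windows (16.6% of genes). A match describes the letters of the window and does not show binding. The CArG-like motif was chosen after the strict CArG box had been searched, so its count among the members is a description only.

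UMIs (unique molecular identifiers) are tags that let each captured RNA molecule be counted once. With a minimum of more than 1000 genes per cell and a mitochondrial share under 20%, PC5 held 9950 of 10629 barcodes and 223054273 UMIs, and PC20 held 4749 of 4884 barcodes and 191122251 UMIs. The median kept cell had 21700 UMIs in PC5 and 33424 in PC20. PC20 cells were thus deeper, and for shares and spreads 10500 UMIs were drawn at random from every cell that had as many, which gave 8847 thinned cells in PC5 and 4474 in PC20. The libraries shared 20 cell barcodes, and all 20 were among the kept cells of both. Of the 6 pericyte markers, *Pdgfrb* had 44.6 CPM (UMIs of a gene per 1000000 UMIs of the kept cells) in PC5 compared with 5.43 CPM in PC20, *Cspg4* had 5.55 CPM and 0.0994 CPM, and *Anpep* had 1.93 CPM and 3.00 CPM. *Abcc9* had 1 UMI in each library, while *Rgs5* had 405 and *Kcnj8* 13 UMIs in PC5 and both had 0 in PC20. Summed over their list, the 4 fibroblast markers had 1302 CPM in PC5, more than the 101 CPM in PC20, of which *Col3a1* alone had 1158 and 101 CPM. In PC20 *Pdgfra* had 25, *Dcn* 32 and *Lum* 0 UMIs, against 19758, 11434 and 796 in PC5. The 3 epithelial markers summed to 0.211 CPM in PC5 and 1012 CPM in PC20, nearly all of it *Krt18* and *Krt8*. Of the 3 smooth muscle cell markers, *Acta2*, *Tagln* and *Myh11*, none was at 0 in either library. The skeletal and heart muscle markers *Myod1*, *Myog* and *Myh6* had 0 UMIs in both. The 3 endothelial markers summed to 0.628 CPM in PC5 and 0.157 CPM in PC20, and the 3 microglia markers to 0.520 and 0.0157 CPM, with *Cd48* and *Adgre1* at 0 in both libraries. The 3 oligodendrocyte markers summed to 0.915 and 0.895 CPM, with *Mobp* at 0 in both, and of the 2 astrocyte markers *Slc4a4* had 143 and 229 CPM and *Aldh1l1* had 7.35 and 0.0262 CPM. The part of these other markers in the differences between the libraries given here was not tested.

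The level of a member is its UMIs summed over kept cells, in CPM, and the log2 ratio is the log2 of the PC5 level over the PC20 level, with positive values where PC5 was higher. Values in parentheses after a level, a ratio or a share are its 95% interval, which is exact Poisson, conditional binomial or Clopper-Pearson. Counting error is all that they cover. Each passage is 1 library without a replicate, so no difference between PC5 and PC20 was tested. UMIs here tag RNA 3′ ends and are not scaled by transcript length, and levels are compared between libraries for 1 gene at a time and not between genes.

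The members ranged from genes found in nearly every cell to genes with a handful of UMIs. *Cald1*, *Tpm1* and *Tpm2* were found in most cells of both passages and differed by less than 2-fold between them. *Myl9* was 8.54-fold and *Tagln* 953-fold higher in PC5, *Acta2* was 1.28-fold higher in PC5, and *Actg2*, *Cnn1*, *Myh11* and *Des* had a UMI in 5.10% of cells or fewer in either library. Counted by the rule of a UMI in at least 10% of the kept cells of either library, 6 of the 10 members were expressed, namely *Acta2*, *Tagln*, *Myl9*, *Cald1*, *Tpm1* and *Tpm2*. Of these 6, 2 had a log2 ratio above 1, against 17.9% of the 10504 expressed genes, and 0 had one below -1, against 19.1% of them. Their median log2 ratio was 0.36, compared with -0.03 over all expressed genes. The remaining 4 members did not pass this filter. Among them *Actg2*, *Cnn1* and *Myh11* had ratios above 1 and *Des* had one below -1, so that without the filter 5 members lay above 1 and 1 below -1. These unfiltered counts have no share over all unfiltered genes beside them and are not read as a result. The *Myh11* ratio rests on 46 UMIs in PC5, of which 21 lay in 2 cells, and 13 in PC20.

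**Figure D1:**
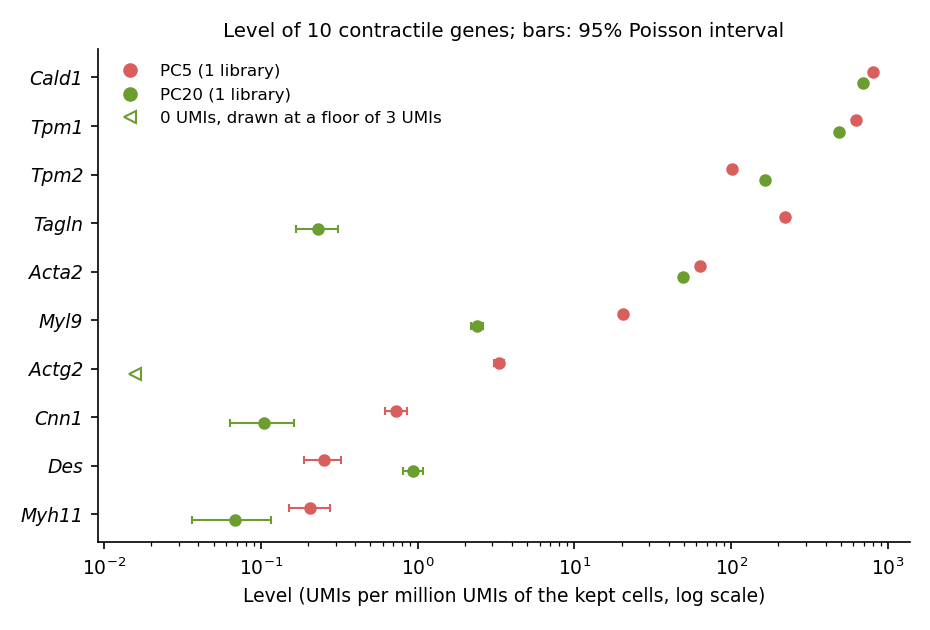
Level of each of the 10 members in PC5 (red) and PC20 (green), in CPM on a log axis, with bars for the 95% Poisson interval, which are narrower than the point for most genes. *Tagln*, *Myl9* and *Actg2* are far apart between the libraries (219 against 0.230 CPM for *Tagln*), and *Acta2*, *Cald1* and *Tpm1* lie close together. The open triangle marks *Actg2* in PC20, which had 0 UMIs and is drawn at the floor of 3 UMIs.

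*Acta2* (ENSMUSG00000035783, chromosome 19 from 34241090 to 34255590 on the minus strand of GRCm38, as are all positions below), the actin by which smooth muscle is most often recognised, had 14018 UMIs in PC5 and 9395 in PC20. Its level was 62.8 CPM (61.8 to 63.9) in PC5 against 49.2 CPM (48.2 to 50.2) in PC20, for a log2 ratio of 0.35 (0.32 to 0.39), or 1.28-fold higher in PC5. The share of cells with an *Acta2* UMI was 40.5% (39.5 to 41.5) in PC5 compared with 33.7% (32.3 to 35.0) in PC20. After thinning these shares were 27.7% (26.8 to 28.7) and 18.8% (17.6 to 20.0), so a minority of cells in each culture had the transcript at the depth read.

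The ratio of *Acta2* moved with the choice of cells by cycle genes. *Mki67* and *Top2a* are transcribed in dividing cells, and a UMI of either was found in 3125 of 8847 thinned PC5 cells and 2574 of 4474 thinned PC20 cells. In PC20 the mean was 0.432 *Acta2* UMIs per thinned cell with such a UMI and 0.575 without one, and in PC5 it was 0.680 with and 0.610 without. Among full-depth cells with no *Mki67* or *Top2a* UMI, 5475 in PC5 and 1321 in PC20, the *Acta2* level was 60.7 CPM in PC5 and 60.5 CPM in PC20, and the log2 ratio was 0.0041. The 1.28-fold difference was thus a value over all kept cells and was not found at full depth among cells without a UMI of these 2 genes. Lacking such a UMI at full depth depends on the depth of a cell. PC20 cells were deeper, so the choice of cells was not alike in the 2 libraries. At equal depth the means without such a UMI were 0.610 in PC5 and 0.575 in PC20.

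*Actg2* (ENSMUSG00000059430, chromosome 6 from 83512905 to 83536265, minus strand), the other smooth muscle actin, which is abundant in gut and bladder muscle, had 734 UMIs in PC5 and 0 in PC20. In PC5 this was 3.29 CPM (3.06 to 3.54), and the log2 ratio was at least 7.71 when computed against a floor of 3 UMIs in PC20, with a lower 95% limit of 7.41 when computed against the 0 UMIs observed. *Actg2* UMIs were spread over 507 PC5 cells (5.10%), of which 38 had 3 or more, and 209 thinned cells (2.36%) had one. In PC20 0 of 4474 thinned cells had a UMI, which allows a share of up to 0.0671% by the floor of 3 counts and has an upper Clopper-Pearson limit of 0.0824%. At this depth the transcript was thus detected in a small share of PC5 cells and not detectable in PC20.

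*Tagln* (ENSMUSG00000032085, chromosome 9 from 45929619 to 45936058, minus strand), the actin cross-linker, was the member with the greatest difference between libraries, with 48958 UMIs in PC5 and 44 in PC20. Its level was 219 CPM (218 to 221) in PC5 against 0.230 CPM (0.167 to 0.309) in PC20, for a log2 ratio of 9.90 (9.47 to 10.36). Few PC20 cells decided the lower value. Of the 44 PC20 UMIs, 28 lay in 2 cells, with 20 and 8 UMIs, and without these cells the log2 ratio was 11.35. A UMI was seen in 70.2% of PC5 and 0.337% of PC20 cells at full depth. In thinned cells the shares were 58.7% (57.7 to 59.8) and 0.0894% (0.0244 to 0.229). *Pcsk7* and *Gm48529* overlap *Tagln* on the opposite strand.

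The 2 PC20 cells with 3 or more *Tagln* UMIs were also rich in *Acta2* and *Myl9* transcripts. The 2 cells together held 279 *Acta2* UMIs and 31 *Myl9* UMIs, or 829 and 92.1 CPM, compared with 49.2 and 2.40 CPM over all PC20 cells. They had 0 *Actg2* and 0 *Cnn1* UMIs and 1 *Myh11* UMI, and neither carried a barcode seen in PC5. Their *Tpm2* level of 249 CPM was above the 164 CPM of the library. Their *Cald1* and *Tpm1* levels of 567 and 356 CPM were below its 690 and 486 CPM. Together the 2 cells were deep, with 191 *Cald1* UMIs at that level. Doublets were not removed, and whether either cell was one was not tested. Of the 16 PC20 cells with any *Tagln* UMI, 8 had an *Acta2* UMI and 4 had a *Myl9* UMI.

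*Cnn1* (ENSMUSG00000001349, chromosome 9 from 22099216 to 22109630, plus strand), the calponin of differentiated smooth muscle, had 163 UMIs in PC5 and 20 in PC20, or 0.731 CPM (0.623 to 0.852) and 0.105 CPM (0.0639 to 0.162). Its log2 ratio was 2.80 (2.13 to 3.55). After thinning, 0.531% (0.391 to 0.706) of PC5 cells and 0.0671% (0.0138 to 0.196) of PC20 cells had a UMI. No cell type in these cultures is known to lack the members, so the 4 skeletal and heart muscle markers served as a guide to background. *Myod1*, *Myog* and *Myh6* were at 0 in both libraries, and *Ttn*, the giant protein of the sarcomere, had a UMI in 0.158% of thinned PC5 cells and 0.112% of thinned PC20 cells, at the same depth per cell. The range from 0 to the share of *Ttn* is thus a rough guide. The PC20 shares of *Cnn1* and *Tagln* lay within it and are not read as expression over the culture.

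*Cnn1* UMIs in PC5 were found in cells with other contractile transcripts. Of the 107 PC5 cells with a *Cnn1* UMI, 90 had an *Acta2* UMI, 100 a *Tagln* UMI and 80 a *Myl9* UMI, where 40.5%, 70.2% and 26.3% of all kept PC5 cells did. Those 107 cells were deeper than the library, with a median of 25089 UMIs. The 11 cells with 3 or more *Cnn1* UMIs all had *Acta2*, *Tagln* and *Myl9* UMIs, at 926, 2370 and 245 CPM. These pooled levels lean on 2 of the 11 cells, the pair with the most *Myh11* UMIs described below. That pair held 134 of the 276 *Acta2*, 407 of the 706 *Tagln* and 21 of the 53 *Cnn1* UMIs of the 11 cells. In PC20, 13 of the 19 cells with a *Cnn1* UMI had an *Acta2* UMI, where 33.7% of all kept PC20 cells did. Of the 19, 0 had a *Tagln* UMI. These 19 cells were also deeper than the library, with a median of 51398 UMIs against 33424.

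*Cald1* (ENSMUSG00000029761, chromosome 6 from 34598500 to 34775473, plus strand), an actin-binding protein with a long smooth muscle form and a shorter form in other cells, had 177502 UMIs in PC5 and 131833 in PC20. Its level was 796 CPM (792 to 799) in PC5 against 690 CPM (686 to 694) in PC20, for a log2 ratio of 0.21 (0.20 to 0.22). Nearly every cell held it, with thinned shares of 99.8% (99.7 to 99.9) and 99.4% (99.1 to 99.6). The UMI counts do not separate its forms, and *Npn2*, *Gm13861* and *Gm14547* overlap it on the opposite strand.

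*Myh11* (ENSMUSG00000018830, chromosome 16 from 14194535 to 14291372, minus strand), the motor itself and the strictest of these markers for smooth muscle, had 46 UMIs in PC5 and 13 in PC20. These are levels of 0.206 CPM (0.151 to 0.275) and 0.0680 CPM (0.0362 to 0.116), and a log2 ratio of 1.60 (0.69 to 2.61). The thinned shares of 0.113% (0.0542 to 0.208) in PC5 and 0.0894% (0.0244 to 0.229) in PC20 lay between 0 and those of *Ttn*, and no difference is read from them. Of the 25 PC5 cells with a *Myh11* UMI, 16 had an *Acta2* UMI, 19 a *Tagln* UMI, 6 a *Cnn1* UMI and 5 an *Actg2* UMI, where 40.5%, 70.2%, 1.08% and 5.10% of all kept PC5 cells did. These cells thus had *Cnn1* and *Actg2* UMIs in a larger share than the library. A pair of PC5 cells stood apart, with 12 and 9 of the 46 *Myh11* UMIs.

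The pair of PC5 cells with 21 of the 46 *Myh11* UMIs also held UMIs of every other member but *Des*. Together they had 134 *Acta2*, 407 *Tagln*, 21 *Cnn1*, 29 *Myl9* and 20 *Actg2* UMIs, and the *Actg2* UMIs lay in 1 of them. Their *Tagln* level was 10688 CPM and their *Acta2* level 3519 CPM, compared with 219 and 62.8 CPM over the library. Both cells were among the 11 PC5 cells with 3 or more *Cnn1* UMIs, so the 2 sets are not separate observations. Of the 25 PC5 cells 21 had 1 *Myh11* UMI each, as did all 13 such cells in PC20.

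*Myl9* (ENSMUSG00000067818, chromosome 2 from 156775420 to 156781658, plus strand), the regulatory light chain that is phosphorylated to start contraction, had 4567 UMIs in PC5 and 458 in PC20. Its level was 20.5 CPM (19.9 to 21.1) in PC5 against 2.40 CPM (2.18 to 2.63) in PC20, for a log2 ratio of 3.09 (2.96 to 3.24), or 8.54-fold higher in PC5. A *Myl9* UMI was found in 26.3% and 4.82% of cells, and after thinning in 16.5% (15.8 to 17.3) and 1.65% (1.30 to 2.07). At full depth 40 PC20 cells had 3 or more *Myl9* UMIs, and the 3 highest held 64 of the 458, the highest with 30. In PC5 449 cells had 3 or more, and the 3 highest held 42 of the 4567. PC20 cells were deeper, and after thinning the highest count in a cell was 3 in PC20 and 10 in PC5.

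*Tpm1* (ENSMUSG00000032366, chromosome 9 from 67022590 to 67049406, minus strand) and *Tpm2* (ENSMUSG00000028464, chromosome 4 from 43514711 to 43523765, minus strand) encode the alpha and beta tropomyosins and differed in direction. *Tpm1* had 625 CPM (621 to 628) in PC5 against 486 CPM (483 to 490) in PC20, for a log2 ratio of 0.36 (0.35 to 0.37). *Tpm2* had 101 CPM (99.8 to 102) in PC5 against 164 CPM (162 to 166) in PC20, for a log2 ratio of -0.70 (-0.72 to -0.67), or 1.62-fold higher in PC20. Thinned shares were 97.5% and 97.3% for *Tpm1*, whose intervals overlapped, and 61.3% (60.3 to 62.3) and 79.1% (77.9 to 80.3) for *Tpm2*. *Tpm2* was the only expressed member with a negative ratio, and its ratio stayed between -0.78 and -0.68 under the alternatives tried.

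*Des* (ENSMUSG00000026208, chromosome 1 from 75360329 to 75368579, plus strand), the muscle intermediate filament protein and a marker often used for pericytes, had 56 UMIs in PC5 and 179 in PC20. These are 0.251 CPM (0.190 to 0.326) and 0.937 CPM (0.804 to 1.08), and a log2 ratio of -1.90 (-2.36 to -1.46). The thinned shares were 0.249% (0.156 to 0.376) and 0.782% (0.545 to 1.09), of which the PC5 interval reached down to the share of *Ttn* and the PC20 interval lay above it. In PC20 the 179 UMIs lay in 145 cells with at most 4 in a cell, and 118 of those cells had 1 each, whereas 28 of the 44 *Tagln* UMIs in PC20 lay in 2 cells. *Gm15179* overlaps it on the opposite strand.

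**Figure D2:**
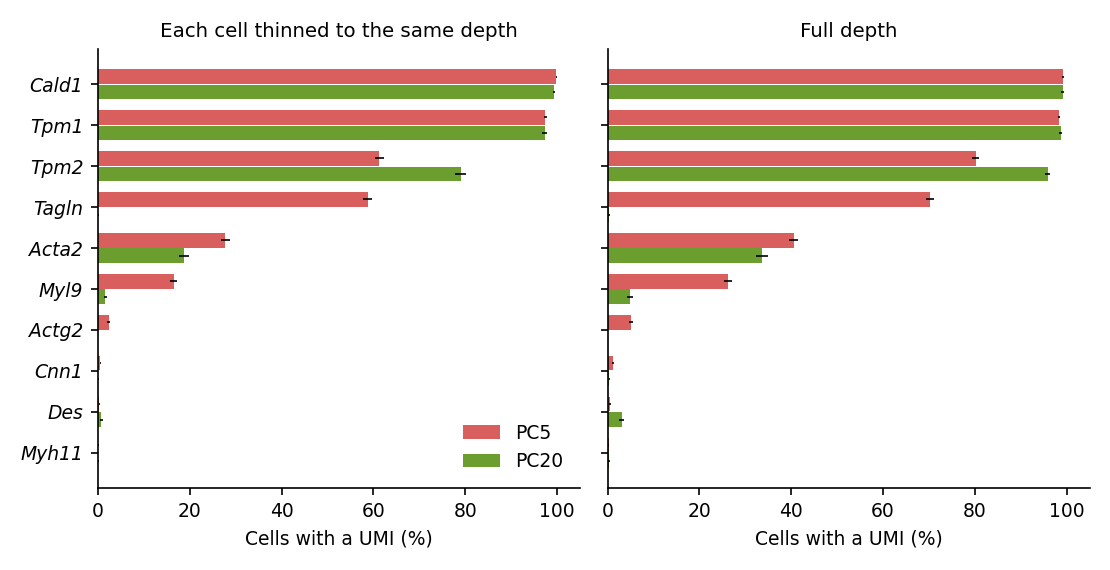
Share of cells with at least 1 UMI of each member in PC5 and PC20, after thinning every cell to 10500 UMIs (left) and at full depth (right), with bars for the 95% Clopper-Pearson interval. *Cald1* and *Tpm1* are near 100% in both libraries and *Tpm2* is higher in PC20, while *Tagln* was found in 58.7% of thinned PC5 cells and 0.0894% of thinned PC20 cells.

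Seen per cell, members other than the widely detected *Cald1*, *Tpm1* and *Tpm2* were mostly undetected or alone. Of *Acta2*, *Actg2*, *Tagln*, *Cnn1*, *Myh11*, *Myl9* and *Des*, 0 were detected in 33.0% of thinned PC5 cells and 80.0% of thinned PC20 cells. A single one was detected in 36.9% and 18.5% of cells, and 2 in 22.2% and 1.43%. In PC5, 3 or more were found in 605 cells with 3, 90 with 4, 6 with 5 and 1 with 6, while in PC20 the highest number was 3, in 1 cell.

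The spread between cells was read as the Fano factor, the variance over the mean of UMIs per thinned cell, which is 1 under Poisson sampling alone and had a median of 1.08 in both libraries over the genes with a UMI in at least 10% of thinned cells (7436 in PC5, 7290 in PC20). *Tagln* in PC5 had a Fano factor of 9.41 and ranked 27 from the top. *Acta2* had 5.79 in PC5 and 6.62 in PC20, ranking 52 and 31. *Acta2* was thus near the top of this ranking in both cultures.

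*Tpm1* had a Fano factor of 3.61 in PC5 and 2.08 in PC20, *Cald1* 1.97 and 1.57, and *Myl9* 1.64 in PC5. *Tpm2* had 1.38 in PC5 and 1.40 in PC20. All of these lay above the median gene, and the 6 members in PC5 were passed by between 0.350% and 13.1% of the genes ranked. A Fano factor grows with the mean of a gene whose cells differ, so these ranks depend on level as well as on spread.

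The sharing of UMIs among cells showed in how few thinned cells some members were detected. For *Acta2*, 72.3% of thinned PC5 cells and 81.2% of thinned PC20 cells had 0 UMIs, while 58 PC5 and 37 PC20 cells had 10 or more. The 10% of cells with the most *Acta2* held 67.9% of its UMIs in PC5 and 82.2% in PC20. The highest PC20 cell at full depth had 267 *Acta2* UMIs, 2.84% of the library's, and the 3 highest held 6.46%. In PC5 the highest cell at full depth had 135, or 0.963%, and the 3 highest held 2.19%. PC20 cells were deeper, and after thinning the highest *Acta2* count in a cell was 36 in PC20 and 51 in PC5.

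*Tagln* in PC5 had 0 UMIs in 41.3% of thinned cells and 10 or more in 419 cells, up to 117 in 1 cell, and the top 10% of cells held 53.4% of its UMIs. *Cald1*, by contrast, was found at similar counts in most cells. Its median was 8 UMIs per thinned cell in PC5 and 7 in PC20, its 99th percentile was 21 and 16, and the top 10% of cells held 20.0% and 19.1% of its UMIs. Such shares depend on level as well as on spread. Mean UMIs per thinned PC5 cell were 8.38 for *Cald1*, 2.24 for *Tagln* and 0.635 for *Acta2*.

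**Figure D3:**
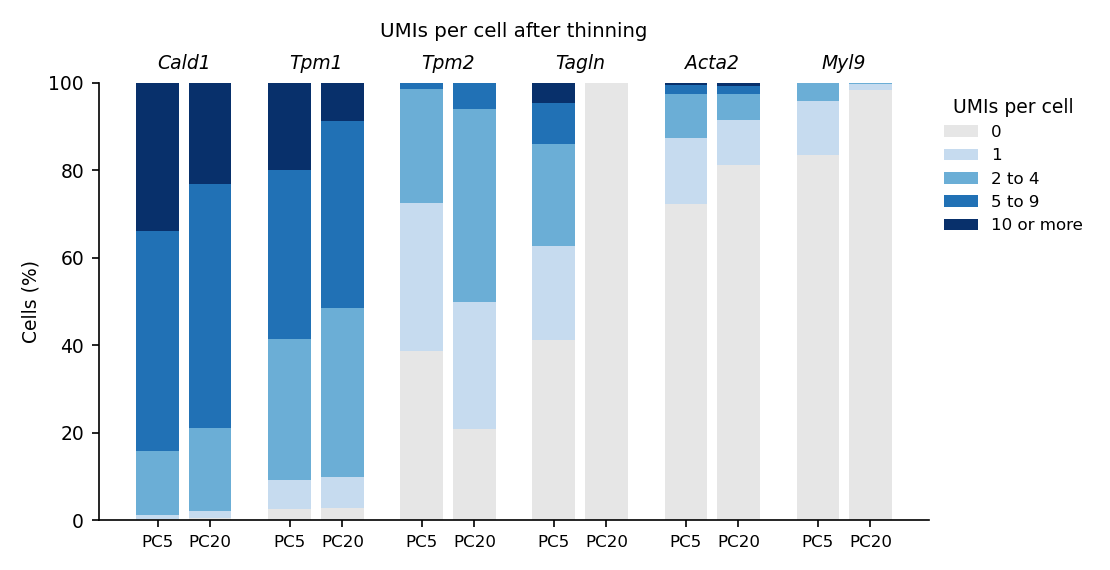
Share of thinned cells with 0, 1, 2 to 4, 5 to 9 and 10 or more UMIs of each of the 6 expressed members in PC5 and PC20. *Cald1* and *Tpm1* fill the upper classes in both libraries, *Tagln* has 419 cells with 10 or more UMIs in PC5 and nearly none above 0 in PC20, and *Acta2* has a thin top class of 58 cells in PC5 and 37 in PC20.

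Co-expression within a culture was described with Pearson's *r* over thinned cells, on the natural log of 1 plus UMIs per 10000. The cells of a library share that library, and the thinning gives them a common depth. Members with a UMI in at least 1% of thinned cells entered, which were 7 in PC5 (all but *Cnn1*, *Myh11* and *Des*) and 5 in PC20 (without *Tagln* and *Actg2* also). Of 21 member pairs in PC5, 6 had an *r* of at least 0.2, against 0.0248% of all gene pairs in that library. In PC20 1 of 10 pairs did, against 0.038% of all gene pairs. All gene pairs include those of genes found in few cells, whose *r* is held down by sampling. These shares are thus not matched to the members for detection. Among 7435 other genes with a UMI in at least 10% of thinned PC5 cells, 10 had such an *r* with *Acta2* and 18 with *Tagln*, members included. The members were also chosen with earlier results of these data known, so the counts are descriptions only. The median *r* of the member pairs was 0.146 in PC5 and 0.0889 in PC20.

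*Acta2* and *Tagln*, the actin and its cross-linker, went together most in PC5, with *r* = 0.56 over 8847 cells. Both transcripts were found in 2036 cells, 1.41 times the 1441 that the product of their shares gives. Of the cells with an *Acta2* UMI 83.0% had a *Tagln* UMI, while of the cells with a *Tagln* UMI 39.2% had an *Acta2* UMI. The relation was graded. The share of cells with *Acta2* was 11.4% among the 3651 cells with 0 *Tagln* UMIs, 20.8% with 1, 37.0% with 2 to 4, 63.7% with 5 to 9 and 84.5% among the 419 cells with 10 or more. Without the 58 cells with 10 or more *Acta2* UMIs the *r* was 0.52.

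*Myl9*, the light chain, was the other partner of both genes in PC5, with *r* = 0.30 with *Tagln* and 0.27 with *Acta2*. *Actg2*, the second smooth muscle actin, had *r* = 0.24 with *Acta2* and 0.22 with *Tagln*. Of its 209 thinned cells 193 (92.3%) had a *Tagln* UMI and 149 (71.3%) an *Acta2* UMI, 1.57 and 2.57 times what the product of shares gives. Such a multiple cannot exceed 1 divided by the larger of the shares, so these values do not rank the partners. The share of cells with *Actg2* increased over the *Tagln* classes from 0.438% of cells with 0 UMIs to 15.8% of cells with 10 or more. *Cald1* and *Tpm1* formed the remaining pair above 0.2 in PC5, with *r* = 0.26.

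*Tpm2* and *Cald1* were also higher in cells with more *Tagln*. Mean *Tpm2* in PC5 was 0.898 UMIs per cell at 0 *Tagln* UMIs and 2.16 at 10 or more, and mean *Cald1* was 7.74 and 11.3. The *r* of *Tpm2* with *Acta2* was 0.19 in PC5 and 0.11 in PC20. *Tpm1* and *Tpm2*, which encode proteins of the same family, had *r* = 0.06 in PC5 and 0.03 in PC20, so cells with more of one were hardly those with more of the other.

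In PC20, where *Tagln* was nearly absent, *Acta2* and *Myl9* were the pair above 0.2, with *r* = 0.32 over 4474 cells. Both were found in 52 cells, 3.74 times the 13.9 given by the product of their shares. In PC5 both were found in 645 cells, 1.59 times the product. The cap on such a multiple is higher in PC20, where *Acta2* was found in fewer cells, so the libraries are not compared by it. Spearman's rho of the pair was 0.19 in PC20 and 0.19 in PC5. A *Myl9* UMI was present in 0.605% of the 3634 PC20 cells with 0 *Acta2* UMIs and in 51.4% of the 37 cells with 10 or more. Without these 37 cells the *r* in PC20 was 0.19, just below the threshold of 0.2, whereas the same step left *r* = 0.23 in PC5. Leaving out the highest values of 1 gene narrows its range, which by itself can lower *r*. Below 10 *Acta2* UMIs the *Myl9* share in PC20 still rose, with 2.19% at 1, 3.32% at 2 to 4 and 18.7% at 5 to 9. Thus the passing of the threshold depended on the 37 cells, but the rise in share was also seen outside them.

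Other PC20 pairs were weaker. *Cald1* and *Tpm1* had *r* = 0.19 and *Acta2* and *Tpm1* had *r* = 0.16, and *Cald1* and *Tpm2* had *r* = 0.01. Mean *Tpm1* was 4.88 UMIs per cell at 0 *Acta2* UMIs and 9.89 at 10 or more in PC20, and 5.99 and 10.7 in PC5. Correlations of this size between sparse counts are given as descriptions only.

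**Figure D4:**
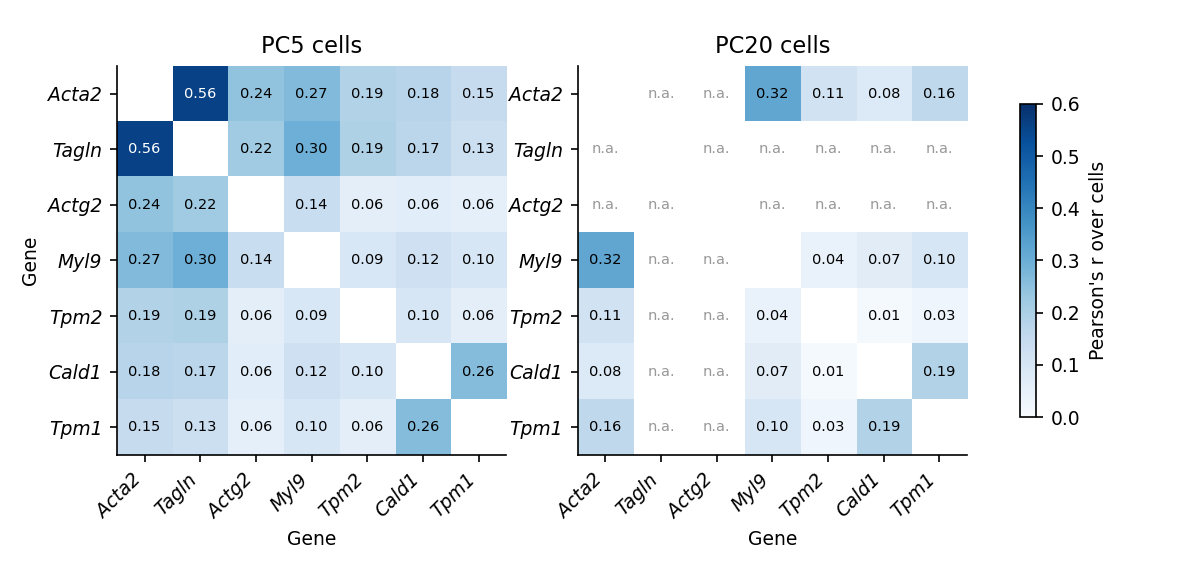
Pearson's *r* over thinned cells for each pair of members in PC5 (8847 cells, left) and PC20 (4474 cells, right), where n.a. marks members with a UMI in under 1% of thinned cells. The *Acta2* and *Tagln* cell of PC5 is the darkest (0.56), and *Acta2* with *Myl9* is the darkest of PC20 (0.32).

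**Figure D5:**
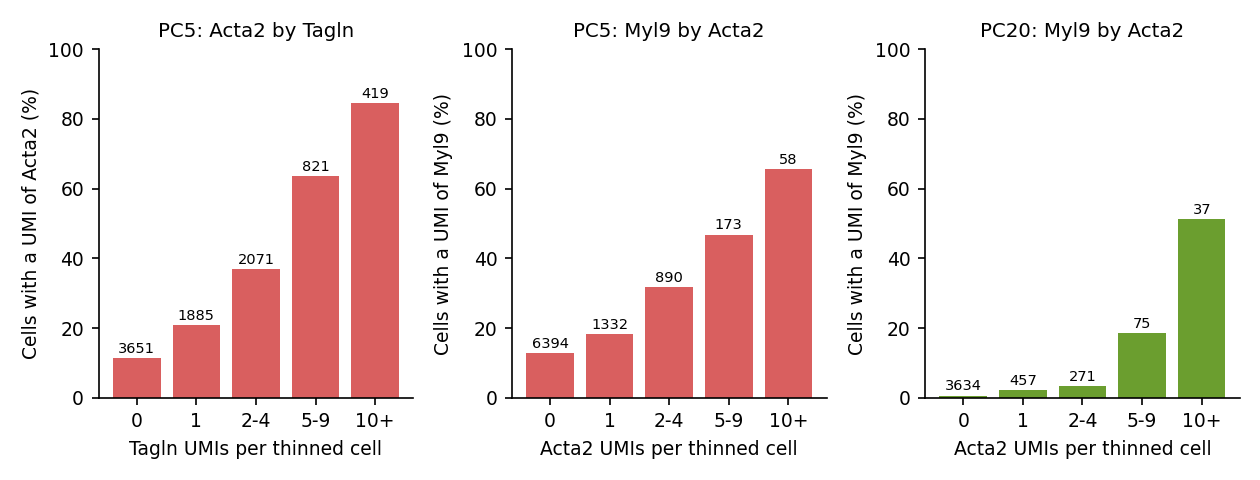
Share of thinned cells with a UMI of *Acta2* by class of *Tagln* UMIs in PC5 (left), and with a UMI of *Myl9* by class of *Acta2* UMIs in PC5 (middle) and PC20 (right), with the number of cells above each bar. The share rises over the classes from 11.4% to 84.5% for *Acta2* by *Tagln*, and from 0.605% to 51.4% for *Myl9* in PC20.

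Cycling cells and depth moved with some members within a library. In PC5 mean *Myl9* was 0.194 UMIs per thinned cell with a *Mki67* or *Top2a* UMI and 0.248 without one, and mean *Tagln* was 2.12 and 2.31, although the share of cells with *Tagln* was 62.6% with such a UMI and 56.6% without. In PC20 mean *Myl9* was 0.0152 and 0.0268. Mean *Tpm1* was 6.06 without such a UMI in PC5 and higher by 0.21 on the log2 scale with one, but 4.86 with and 5.51 without in PC20. Mean *Cald1* differed by little, with 8.68 and 8.21 in PC5 and 7.39 and 7.06 in PC20. With cells put into 3 groups by their original depth, *Tpm2* in PC20 went from 2.06 UMIs per thinned cell in the shallowest to 1.54 in the deepest group, and *Myl9* in PC5 from 0.260 to 0.185, while *Acta2* in PC5 had 0.655 and 0.635. When full-depth cells holding UMIs of these cycle genes were left out, the log2 ratio between the libraries was 0.12 for *Tpm1*, 0.21 for *Cald1*, -0.78 for *Tpm2* and 2.78 for *Myl9*. As with *Acta2*, the ratio of *Tpm1* was thus nearer to 0 than the 0.36 over all kept cells. It was 2.63 for *Cnn1* and -2.39 for *Des*, from 5 and 46 PC20 UMIs, while *Tagln* and *Myh11* had 3 and 2 PC20 UMIs left. The part of depth in the differences between the libraries was not tested beyond the thinned values.

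The genes whose pattern over cells was most like that of *Acta2* were looked up among those with a UMI in at least 10% of thinned cells. In PC5 *Tagln* and *Myl9* ranked 1 and 3 of 7435 genes, and outside the members the 8 highest were *Tmsb4x* (*r* = 0.30), *Actb* (0.24), *Dstn* (0.23), *Myl6* (0.23), *Fhl1* (0.22), *Myl12a* (0.22), *Itgb1* (0.20) and *Prss23* (0.20). In PC20 the 8 highest of 7289 were *Actb* (*r* = 0.26), *Myl6* (0.25), *Tmsb4x* (0.25), *S100a11* (0.22), *Dstn* (0.22), *S100a6* (0.22), *1810037I17Rik* (0.21) and *Actg1* (0.20). *Tmsb4x* (thymosin beta 4, which binds actin monomers), *Actb* (the cytoplasmic beta actin), *Dstn* (destrin, which severs actin filaments) and *Myl6* (the essential myosin light chain) were in both sets of 8. *Itgb1* (the integrin beta 1 chain) had *r* = 0.20 in PC5 and 0.00 in PC20.

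The lowest *r* with *Acta2* in PC5 belonged to *Spp1* (osteopontin, -0.18), *Fth1* (the ferritin heavy chain, -0.15) and *Tgfbi* (an extracellular matrix protein, -0.14), and in PC20 to *Npm1* (a nucleolar protein, -0.19), *Sqstm1* (an autophagy receptor, -0.18) and *Hspa5* (a chaperone of the endoplasmic reticulum, -0.16). None of these 6 was among the 3 lowest in both libraries. With *Tagln* in PC5 the 8 highest outside the members were *Tmsb4x* (*r* = 0.30), *Cryab* (0.27), *Prss23* (0.27), *Itgb1* (0.26), *Myl12a* (0.26), *Tnc* (0.25), *Thbs1* (0.25) and *Dstn* (0.25), and the 3 lowest were *Sox9* (-0.19), *Tcf4* (-0.19) and *Ccl2* (-0.18). These values are small and describe the cells of 1 library each.

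Regulators of contraction were found on either side. Of 24 genes listed, 15 were expressed, of which 3 had a log2 ratio above 1 (17.9% of all expressed genes did), 4 below -1 (19.1%) and 8 in between, with a median of 0.16. Both counts are near the shares over all expressed genes. *Mylk*, the kinase that phosphorylates the light chain, had 1.16 CPM in PC5 against 15.9 CPM in PC20, for a log2 ratio of -3.77 (-3.96 to -3.59), so it was higher in the library where *Myl9* was lower. *Itpr2* (-2.56), *Ppp1r12b* (-1.23) and *Itpr1* (-1.08), which encode calcium release channels and a subunit of the myosin phosphatase, were also higher in PC20.

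On the other side, *Ednra*, a receptor for endothelin, had 2631 UMIs in PC5 against 0 in PC20, so that its log2 ratio was at least 9.55 against the floor of 3 UMIs. *Cacna1c*, the pore of the L-type calcium channel, had 10.1 CPM in PC5 against 0.0471 CPM in PC20, for a log2 ratio of 7.74 (6.81 to 8.87), and *Synpo2* had a ratio of 1.82 (1.64 to 2.00).

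A list of 9 genes held SRF and factors linked to it, and was not limited to factors that activate SRF. Among them were *Klf4* (log2 ratio 0.66) and *Fhl2* (1.19). Of the 9 genes 8 were expressed, and all 8 had a positive log2 ratio, with 4 above 1 and a median of 1.09. Over all expressed genes 5139 of 10504 were higher in PC5 and 17.9% lay above 1. The list was chosen with earlier results of these data known, so these counts are descriptions only, and the part of SRF was not tested. *Mrtfb*, a cofactor that carries actin signals to SRF, had 29.7 CPM in PC5 against 7.44 CPM in PC20, for a log2 ratio of 2.00 (1.91 to 2.08). *Csrp1*, a LIM protein, had a ratio of 1.48 (1.44 to 1.51), and *Srf* itself had 0.82 (0.76 to 0.89). *Myocd*, the muscle-specific cofactor, had 88 UMIs in PC5 and 0 in PC20, in 0.396% of thinned PC5 cells, and did not pass the filter.

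Of 19 other isoforms of the member families 14 were expressed, with 2 above 1 and 2 below -1, near the 17.9% and 19.1% over all expressed genes, and a median of 0.42. *Actb* had 10271 CPM in PC5 but 2614 CPM in PC20 (log2 ratio 1.97), and *Cnn2*, a calponin of non-muscle cells, had a ratio of 1.47. The transgelin paralogue *Tagln2* went the opposite way to *Tagln*, with 128 CPM in PC5 against 769 CPM in PC20, for a log2 ratio of -2.59 (-2.60 to -2.57). *Myl12b*, a non-muscle regulatory light chain, had 79.9 and 168 CPM and a ratio of -1.07, opposite to *Myl9*. *Myl12a*, from the same list, had 510 and 325 CPM and a ratio of 0.65, in the same direction as *Myl9*. The annotated transcripts of *Acta2* and *Actg2* held no stretch of 61 bases in common with each other or with the other actins listed, nor did those of *Tagln* with *Tagln2*, *Cnn1* with *Cnn2* and *Cnn3*, or the tropomyosins *Tpm1* and *Tpm2* with each other, *Tpm3* and *Tpm4*.

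The 14 adhesion and SRF target genes were all expressed, with 6 above 1 and 0 below -1, against 17.9% and 19.1% of all expressed genes, and a median of 0.84. This list too was chosen with earlier results of these data known. *Ccn2*, a secreted matrix protein, had 238 CPM in PC5 against 5.37 CPM in PC20, for a log2 ratio of 5.47 (5.38 to 5.56), and *Filip1l* had 1.48. *Pdlim7* (-0.91), a LIM protein of the cytoskeleton, and *Ankrd1* (-0.61) were higher in PC20. The *r* of these genes with *Acta2* ran up to 0.18 in PC5 (*Flna*, a filamin) and 0.13 in PC20 (*Ankrd1*).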

How the data were processed

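Libraries of passage 5 (PC5) and passage 20 (PC20) were made with the 10x 3′ kit. The authors mapped reads to mm10 with CellRanger (Cell Ranger 5.0 in the submitters' processing notes) and deposited raw UMI counts per gene and barcode, with no normalization. The cell filter was that of the study (more than 1000 genes, under 20% mitochondrial UMIs). Doublets were not removed. UMIs were summed over kept cells as CPM. Cells were thinned without replacement to 10500 UMIs, near the 10th percentile of all kept cells, and shallower cells (1103 in PC5, 275 in PC20) were left out. Genes were called expressed with a UMI in at least 10% of cells of either library, and pairs used genes in at least 1% of thinned cells. A floor of 3 UMIs stood in for 0. With 1 library per passage no test was made. Python 3.11.15, numpy 2.4.6, scipy 1.17.1 and pandas 2.3.3 were used, and the code was tested on simulated counts. Gene positions are from GENCODE M21. Named genes are the members, the 8 highest and 3 lowest by *r* with *Acta2* (both libraries) and *Tagln* (PC5), the 2 genes per list and direction with the largest log2 ratio at 20 CPM or more, and genes whose role in contraction a sentence needed. Some genes that this rule names are not reported here. *Ttn* and the genes of the marker lists served as checks. Members and gene lists were chosen with earlier results of these data known, and the CArG-like motif after the strict CArG box had been searched.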

Additional observations from a re-analysis of the deposited data

Results flagged for a closer look

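The barcodes left out by the cell filter, 679 in PC5 and 135 in PC20, enter no comparison and still held UMIs of some members above the floor of 3. In PC5 they held 150 UMIs of *Acta2*, 6 of *Actg2*, 343 of *Tagln*, 38 of *Myl9*, 571 of *Cald1*, 651 of *Tpm1* and 224 of *Tpm2*, of 924207 UMIs in all. In PC20 they held 17 UMIs of *Acta2*, 89 of *Cald1*, 61 of *Tpm1* and 20 of *Tpm2*, of 184103 UMIs. Levels in these barcodes were 162 CPM for *Acta2* and 371 CPM for *Tagln* in PC5, compared with 62.8 and 219 CPM in kept cells. The 0 *Tagln* UMIs in the PC20 barcodes left out rest on far fewer UMIs than the kept cells.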

How the results depend on the processing

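The log2 ratio of *Acta2* lay between 0.0041 and 0.37 over the settings planned, and moved beyond its counting interval with cells that had no *Mki67* or *Top2a* UMI (0.0041). That of *Tagln* lay between 9.87 and 11.48, with 10.71 after thinning, 10.90 as a mean over cells, 11.48 in cells with no *Mki67* or *Top2a* UMI, 10.70 without the 5% of cells with the most UMIs and, in a setting chosen after seeing the data, 11.35 without the 2 PC20 cells with 3 or more *Tagln* UMIs. Without the 20 barcodes seen in both libraries, also chosen after seeing the data, the ratios were 0.36 and 9.89. The counts of expressed members past 1 and -1 were 2 and 0 under all 7 planned cell filters and scalings, and 5 and 1 with no filter on low values. The unfiltered counts have no share over all unfiltered genes beside them. Member pairs with *r* of at least 0.2 numbered 6 in PC5, 3 with Spearman's rho, 9 at full depth and 10 in cells with no *Mki67* or *Top2a* UMI. In PC20 they numbered 1, with 0 by Spearman's rho and 4 at full depth. The share of all gene pairs is known only for Pearson's *r* over all thinned cells. Changes in these counts are therefore not read as results about the members. The values of *r* without cells with 10 or more *Acta2* UMIs were likewise chosen after seeing the data. No ratio or *r* changed sign under these settings.

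No paired analysis was possible because each passage has 1 library. The *Myh11* and *Cnn1* ratios rest on 13 and 20 PC20 UMIs. Passage, isolation and library cannot be told apart, doublets were not removed, and intervals hold no variation between cultures.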
